A study of Mus musculus with 16 samples.

Results

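Endothelial cells of the yolk sac were compared with endothelial cells of the embryo proper at embryonic day 9.5 (E9.5), in 4 of the 16 RNA-seq libraries of a mouse study of endothelium and blood formation. The libraries were chosen by their labels, 2 from yolk sac endothelial cells (EC) and 2 from embryo EC, and 12369 of the 33531 listed genes reached 1 FPKM (fragments scaled to transcript length and library size, as the authors deposited them) in at least 2 of these 4 libraries and were tested. The conceptuses came from superovulated B6C3F1/J females mated with males homozygous for the Runx1-GFP allele Runx1tm4Dow, so every cell of either group carried 1 reporter allele. Cells of both groups were sorted as Runx1-GFP negative, CD31 positive and kit, CD41 and CD45 negative. The yolk sac group was taken from E9.5 yolk sacs, with the vitelline vessels left on the embryo side. The embryo group came from an E9.5 region that contained aorta-gonad-mesonephros, some somite tissue, and the vitelline and umbilical vessels, after removal of head, heart and lung region, liver, gut tube, tail and limb buds. As further groups, EC of both sites at E10.5 and hemogenic endothelium (HE, sorted for Runx1-GFP and CD31, with kit low or absent and CD41 and CD45 absent) of both sites and stages entered the fit, with 2 libraries each. Whether the 2 libraries of a group are of different litters or sorts is not in the labels, and the spread behind the p-values may therefore be technical.

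The yolk sac wall is built of visceral endoderm, an outer epithelium that takes up maternal proteins and secretes plasma proteins and lipoproteins, and of an inner mesoderm in which the first vessels and blood cells form. Yolk sac endothelium carries scavenger and endocytic receptors that in the adult mark the sinusoidal endothelium of the liver. Endothelium of the embryo forms arteries and veins beside the somites and the neural tube, tissues patterned by Wnt, retinoic acid and Hox genes. Visceral endoderm genes are therefore given apart from endothelial genes throughout.

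Promoters of 3 genes, each from one of the groups described below, are shown with the motif whose share among promoters of these groups is given after them. They are the 250 bases before the RefSeq gene start in build GRCm38.p6, on the coding strand, with the motif searched in capitals. The expression files use build mm9, so these coordinates belong to the sequences only. The Afp window, at chr5:90490464-90490713 on the plus strand, holds GTTAAT, a core of the site bound by HNF1 factors, which act in visceral endoderm and liver, starting 105 bases before the gene start. The Stab2 window, at chr10:87007943-87008192 on the minus strand, holds AGGTCA, a core of the site bound by nuclear receptors, starting 164 bases before the start. The Fzd10 window, at chr5:128600856-128601105 on the plus strand, holds the ETS motif CCGGAAG starting 152 bases before the start.
Afp: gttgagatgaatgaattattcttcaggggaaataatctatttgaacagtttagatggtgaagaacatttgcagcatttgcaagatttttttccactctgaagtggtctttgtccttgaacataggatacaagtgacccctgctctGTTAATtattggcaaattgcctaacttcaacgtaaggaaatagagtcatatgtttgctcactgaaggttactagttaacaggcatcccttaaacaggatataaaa
Stab2: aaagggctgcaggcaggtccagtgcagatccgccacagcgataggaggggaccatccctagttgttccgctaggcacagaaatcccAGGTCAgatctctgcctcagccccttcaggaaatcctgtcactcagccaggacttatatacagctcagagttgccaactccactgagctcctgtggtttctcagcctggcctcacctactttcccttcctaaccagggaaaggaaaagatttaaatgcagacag
Fzd10: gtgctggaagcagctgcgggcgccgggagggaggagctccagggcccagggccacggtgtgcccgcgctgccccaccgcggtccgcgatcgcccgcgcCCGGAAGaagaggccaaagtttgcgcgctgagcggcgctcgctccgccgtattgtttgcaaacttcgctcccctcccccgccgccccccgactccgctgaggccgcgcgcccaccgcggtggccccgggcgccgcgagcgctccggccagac

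Over promoters of 300 bases, which add 50 bases after the start, and on both strands, GTTAAT lay in 12 of the 38 promoters found for the 46 visceral endoderm genes that were called higher in the yolk sac (31.6%), in 5.1% of the 8918 tested genes with a promoter and in 8.2% of all 27025 genes of the promoter table. AGGTCA lay in 34.2% of these visceral endoderm promoters, in 14.5% of tested genes and in 18.1% of all genes. CCGGAAG lay in 5.3% of them, in 20.4% of tested genes and in 9.9% of all genes. Of the 13 sinusoidal genes called higher 7 had a promoter in the table, and AGGTCA lay in 4 of the 7 and the other two motifs in 0. Of the 640 genes called lower 439 had one, with CCGGAAG in 9.8%, GTTAAT in 5.9% and AGGTCA in 14.1%, so the motif shown for Fzd10 was less frequent there than in all tested genes. Of the 32 general endothelial genes 15 had one, with GTTAAT in 6.7%, AGGTCA in 26.7% and CCGGAAG in none. A match is a description of letters and not a binding site, and no test was made.

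Each of the 4 libraries was rich in endothelial transcripts and each also held transcripts of other cells. The sum of FPKM lay between 658892 and 771814, between 11954 and 12019 genes reached 1 FPKM, and between 46.5% and 47.8% of listed genes stood at 0. The depth in reads is unknown. Steps among low values gave a clear relative depth for 2 of 3 libraries, at 0.983 times embryo replicate 1 for embryo replicate 2 and 0.669 times for yolk sac replicate 2. Values before the word against are embryo replicates 1 and 2, and those after it are yolk sac replicates 1 and 2. Pecam1, which encodes the sorted CD31, stood at 168 and 148 FPKM in the embryo and 192 and 104 in the yolk sac. Cdh5, the endothelial cadherin, stood at 337 and 285 against 474 and 222 FPKM. Ptprc, which encodes CD45, lay between 0.0253 and 0.0636 FPKM. The excluded markers were not all low. Kit stood at 11.1 and 9.08 FPKM in the embryo and 8.03 and 2.83 in the yolk sac, and Itga2b, which encodes CD41, at 9.61 and 7.54 against 58.5 and 31.5 FPKM, a difference of 2.21 ± 0.31 on the log2(FPKM + 1) scale (adjusted p = 0.000785). Runx1 stood at 1.15 and 0.883 against 2.37 and 2.09 FPKM.

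Summed levels of cell type lists separated the sites for some cell types and the replicates for others. The 27 plasma protein genes of visceral endoderm summed to 18.95 and 62.26 FPKM in the embryo libraries and to 1834 and 1311 in the yolk sac libraries. Genes of all visceral endoderm lists together took 0.194% and 0.228% of FPKM in the embryo and 1.21% and 0.844% in the yolk sac. The 18 erythroid genes summed to 1951 and 10910 FPKM in the embryo and to 14340 and 36510 in the yolk sac, so embryo replicate 2 lay closer to yolk sac replicate 1 than to its own replicate. Mesoderm genes of the yolk sac summed to 692.6 and 1395 FPKM in the embryo and 493.1 and 2000 in the yolk sac, and replicate 2 was the higher library at each site. In these bulk samples fewer cells of a type and less RNA per cell cannot be told apart.

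**Figure D1:**
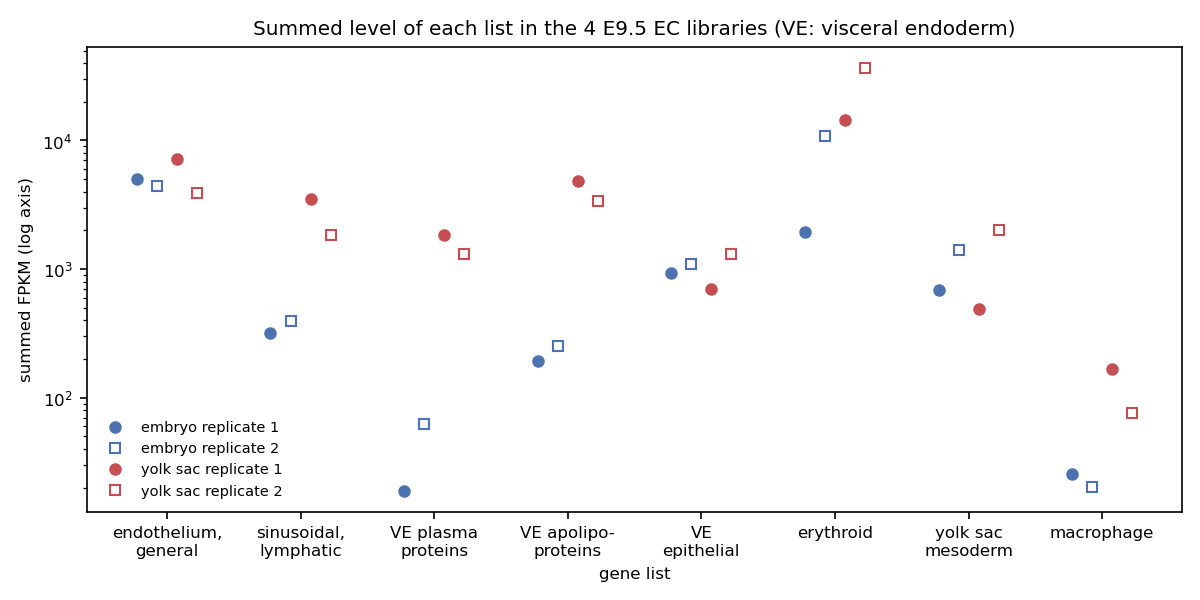
Summed FPKM of 8 gene lists (log axis) in the 4 E9.5 EC libraries, embryo in blue and yolk sac in red, replicate 1 filled and replicate 2 open. Sinusoidal and visceral endoderm plasma protein and apolipoprotein sums are higher in both yolk sac libraries, while general endothelial, epithelial and mesoderm sums overlap between sites.

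Between the sites, 817 genes were higher and 640 lower in yolk sac EC at a Benjamini-Hochberg adjusted p under 0.05 by limma, 11.8% of the genes tested (6.61% higher and 5.17% lower). Of these, 598 and 399 differed at least 2-fold. The median difference of all tested genes was −0.04 on the log2 scale. The FPKM of the 2 groups did not overlap in 3176 genes that were higher in the yolk sac (25.7%) and in 3884 that were lower (31.4%). Leaving out embryo replicate 1 brought the count of called genes to 514, leaving out embryo replicate 2 to 749, and leaving out yolk sac replicate 1 to 849. With the 4 libraries fitted alone it was 803.

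Receptors of sinusoidal and scavenger endothelium were far higher in yolk sac EC. Lyve1, the hyaluronan receptor of lymphatic and sinusoidal endothelium, stood at 9.68 and 26.9 FPKM in the embryo libraries and at 815 and 403 in the yolk sac libraries. The difference was 5.06 ± 0.63 (standard error) on the log2(FPKM + 1) scale (adjusted p = 0.000388), and Lyve1 had the highest level of the list at this site. Stab2, a scavenger receptor that clears hyaluronan from blood, stood at 5.32 and 15.4 FPKM in the embryo and 410.0 and 181 in the yolk sac, higher by 4.75 ± 0.63 (adjusted p = 0.000597). Mrc1, the mannose receptor, was at 1.34 and 4.79 against 145 and 62.1 FPKM, higher by 4.70 ± 0.66 (adjusted p = 0.000824). In all 3 genes the lower yolk sac library, replicate 2, lay far above the higher embryo library, which was also replicate 2. Gpr182, a receptor of sinusoidal endothelium that binds chemokines, was at 14.9 and 25.4 FPKM in the embryo and 560.2 and 291 in the yolk sac and higher by 4.30 ± 0.64 (adjusted p = 0.00116). Fcgrt, which encodes the heavy chain of the neonatal Fc receptor that carries antibody across cells, was at 4.64 and 12.4 against 225 and 157 FPKM and higher by 4.44 ± 0.40 (adjusted p = 5.52e-05). Tspan7, a tetraspanin, was at 7.65 and 14.9 against 220.4 and 136 FPKM, higher by 3.90 ± 0.38 (adjusted p = 8.5e-05).

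Of the 21 genes of the sinusoidal and lymphatic list in the table, 17 were tested and 13 were higher in the yolk sac, with none lower, against 6.61% of all tested genes called higher. Their median difference was 3.63 against −0.04 over all tested genes, and 2 of the 17 had reached the filter only through the yolk sac. This list, like the others here, was chosen with earlier results of these data known, so shares called within lists are descriptive only. The remaining called members, named although outside the naming rule, held a transcription factor and further receptors. Maf, a factor known to direct sinusoidal identity in the liver, was at 2.22 and 4.601 against 84.3 and 43.05 FPKM, a difference of 3.85 ± 0.38 (adjusted p = 9.48e-05). Cd36, a receptor for fatty acids, differed by 3.77 ± 0.53 (adjusted p = 0.000785), Oit3 by 3.63 ± 0.60 (adjusted p = 0.00224), Ehd3, of the endocytic recycling machinery, by 3.00 ± 0.28 (adjusted p = 6.01e-05), and Colec12, a scavenger collectin, by 1.80 ± 0.38 (adjusted p = 0.00877). Dnase1l3 and F8, the coagulation factor made by sinusoidal endothelium, were called at low levels, at 2.301 and 1.12 and 2.37 and 1.34 FPKM in the yolk sac. Stab1, the partner receptor of Stab2, was at 139 and 114 FPKM in the embryo and 379.6 and 169.7 in the yolk sac and did not pass (adjusted p = 0.329). The lymphatic factor Prox1 lay under 1 FPKM in each of the 4 libraries and was not tested. Between 10 and 13 of the list were called when any 1 of the 16 libraries was left out.

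Mrc1 is also a macrophage gene, so the macrophage list was read beside it. Its sum was 25.27 and 20.09 FPKM in the embryo and 167.7 and 76.02 in the yolk sac, where most of it was Mrc1. Of its 16 members 5 were tested, 1 of them only through the yolk sac. Of the 5, 2 were higher (Mrc1 and Fcgr3) and 1, Laptm5, was lower, against 6.61% and 5.17% of all tested genes. The median difference of the 5 was 1.33, and 4 of them lay above 0. Csf1r, the receptor that defines macrophages, was at 0.513 and 0.816 against 0.629 and 0.5103 FPKM, and Emr1, which encodes F4/80, was at 0 in both embryo libraries and at 0 and 0.0113 in the yolk sac libraries. Ctss was at 0 in all 4.

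**Figure D2:**
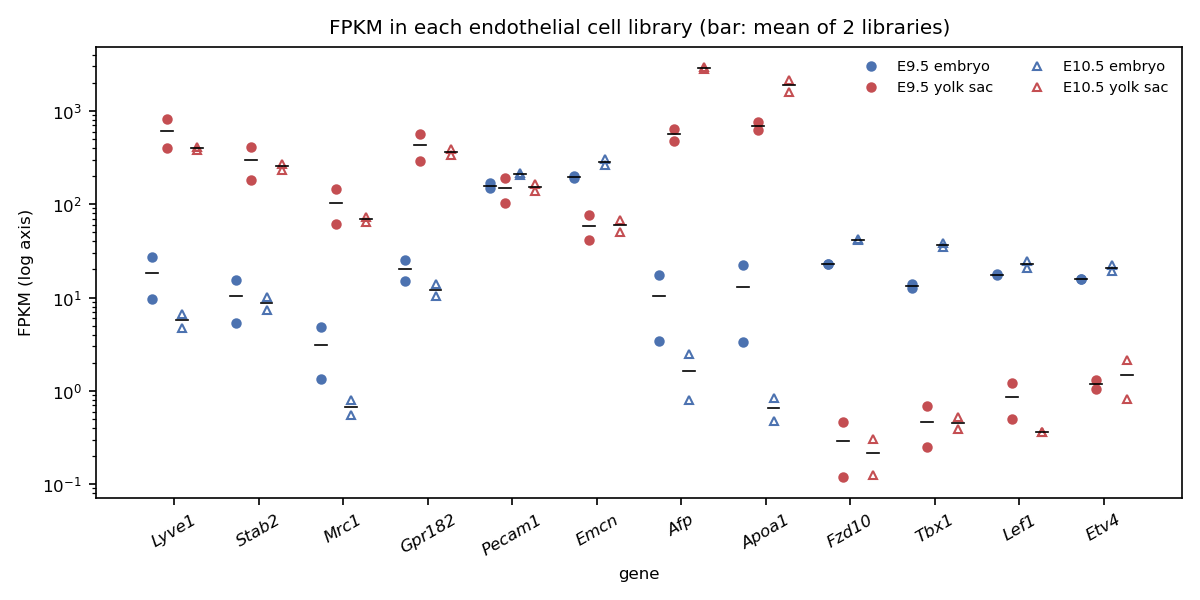
FPKM (log axis) of 12 genes in the 8 EC libraries, circles at E9.5 and triangles at E10.5, embryo in blue and yolk sac in red, with a bar at the mean of each pair. Lyve1, Stab2, Mrc1 and Gpr182 and the visceral endoderm genes Afp and Apoa1 are higher in yolk sac libraries, Fzd10, Tbx1, Lef1 and Etv4 are higher in embryo libraries, and Pecam1 overlaps at E9.5.

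Genes of general endothelial identity did not separate the sites as a list. Of 32 tested genes 1 was called higher and 0 lower, and their median difference was 0.15 (−0.325 without yolk sac replicate 1 and 0.602 without yolk sac replicate 2), with between 0 and 3 called when any 1 library was left out. Their summed FPKM, 5017 and 4431 in the embryo, lay inside the range of the yolk sac libraries, 7139 and 3899. The called gene was Clec14a, a C-type lectin of endothelium, at 21.3 and 23.2 FPKM in the embryo and 185 and 99.9 in the yolk sac, higher by 2.56 ± 0.52 (adjusted p = 0.00767). Emcn, the sialomucin endomucin, was at 202 and 192 against 76.5 and 41.2 FPKM without overlap and did not pass (adjusted p = 0.134). Cd34 behaved alike in level, at 326 and 301 against 184 and 104 FPKM (adjusted p = 0.117). Plvap, which forms the diaphragms of fenestrae, was at 574 and 517 against 1349 and 729 FPKM (adjusted p = 0.342). Relative to the general endothelial sum of the same library, the sinusoidal sum was 6.4% and 8.9% in the embryo and 49.0% and 46.9% in the yolk sac, so the ratio was steadier between yolk sac replicates than either sum.

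Called Notch genes were all lower in the yolk sac, while the arterial list had a median difference of 0.04. Jag2, a Notch ligand, was at 19.3 and 16.9 FPKM in the embryo and 3.41 and 1.64 in the yolk sac, a difference of −2.48 ± 0.26 (adjusted p = 0.000123). Hey1, a Notch target of arteries, was at 42.1 and 31.7 against 11.05 and 6.78 FPKM, a difference of −1.96 ± 0.30 (adjusted p = 0.00132), and its relative Hey2 differed by −1.09 ± 0.30 (adjusted p = 0.0349). The other called Notch genes were the receptor Notch3 (−1.32 ± 0.30, adjusted p = 0.0138), the ligand Dll3 (−1.24 ± 0.28, adjusted p = 0.0138) and the target Hes5 (−1.10 ± 0.23, adjusted p = 0.00879), each lower in the yolk sac and the last 2 at under 3 FPKM in each library. In all, 6 of 19 tested Notch genes were lower and 0 higher, against 5.17% of all tested genes called lower, with a median of −0.34. Of the 19, 2 had reached the filter only through the embryo and so had to be lower in the yolk sac. Without embryo replicate 1 the count of called Notch genes was 2.

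Of 21 tested arterial genes 11 had a difference above 0. Against 5.17% and 6.61% of all tested genes, 3 were lower (Jag2, Hey1 and Hey2, which are also called Notch genes) and 1 was higher. The higher one was Acvrl1, the BMP9 receptor ALK1, at 52.5 and 47.9 against 155 and 88.3 FPKM, a difference of 1.21 ± 0.35 (adjusted p = 0.0446). Among the other arterial genes Gja5, a gap junction gene of arteries, stood at 41.7 and 45.5 against 95.4 and 71.1 FPKM (adjusted p = 0.243). Of 9 venous genes 1 was lower in the yolk sac, against 5.17% of all tested genes, and none was higher. The lower gene was Vwf, which encodes von Willebrand factor, at 54.8 and 38.1 against 11.96 and 6.27 FPKM, a difference of −2.27 ± 0.48 (adjusted p = 0.00972). The venous factor Nr2f2 was at 17.3 and 13.6 against 11 and 11.4 FPKM (adjusted p = 0.321). The 8 tested genes that respond to blood flow had a median of 0.04, with 4 above 0. Against 6.61% of all tested genes, 2 of them were higher in the yolk sac. They were Aqp1, a water channel, at 5.77 and 5.09 against 37.8 and 29.8 FPKM (2.43 ± 0.53, adjusted p = 0.0114), and the anticoagulant receptor Thbd, at 10.7 and 9.48 against 57.4 and 26.04 FPKM (1.84 ± 0.52, adjusted p = 0.0385). The flow factor Klf2 was at 59.2 and 48.3 against 73.1 and 53.2 FPKM, with overlap. In the Tie and VEGF list 1 gene of 16 was called, against 11.8% of all tested genes. This was Apln, the ligand apelin made by endothelial tip cells, at 26.2 and 22.4 against 9.35 and 4.28 FPKM (−1.77 ± 0.36, adjusted p = 0.0075).

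Receptors of the BMP and TGF-β family were the called higher genes of their list, 3 of 25 tested against 6.61% of all tested genes, and the list median was −0.01. Beside Acvrl1 these were Tgfbr2, the signalling receptor of TGF-β, at 10.4 and 12.3 against 46.2 and 27.1 FPKM (1.57 ± 0.31, adjusted p = 0.00691), and its coreceptor Tgfbr3, at 13.9 and 15.97 against 29.4 and 28.02 FPKM (0.90 ± 0.23, adjusted p = 0.0239). The BMP antagonist Nog was lower, at 4.44 and 3.91 against 0.752 and 1.48 FPKM (−1.31 ± 0.27, adjusted p = 0.00877). The 14 tested adhesion genes had a median of 0.34, and 1 had reached the filter only through the yolk sac. Of the 14, 3 were higher and 1 was lower, against 6.61% and 5.17% of all tested genes. Cd44, a hyaluronan receptor, was at 5.61 and 6.72 against 19.4 and 12.5 FPKM (1.22 ± 0.21, adjusted p = 0.00318), Vcam1, an adhesion molecule for leukocytes, at 0.7199 and 1.56 against 6.28 and 3.29 (1.41 ± 0.31, adjusted p = 0.0118), and Madcam1, which homes lymphocytes to mucosa, at 4.95 and 4.56 against 2.08 and 0.466 (−1.44 ± 0.35, adjusted p = 0.0198).

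Genes of the interferon and innate response were higher in the yolk sac in 8 of 21 tested cases, with 1 lower, against 6.61% and 5.17% of all tested genes, a median difference of 0.93, and between 5 and 12 called when 1 library was left out. Bst2, the membrane protein tetherin that holds back budding viruses, was at 47.4 and 53.8 FPKM in the embryo and 387 and 264 in the yolk sac, higher by 2.64 ± 0.32 (adjusted p = 0.000324). Isg15, a ubiquitin-like protein induced by interferon, was at 1.004 and 1.08 against 19.1 and 9.87 FPKM (2.86 ± 0.39, adjusted p = 0.000651). Ifit3 (2.62 ± 0.43, adjusted p = 0.00229) and Irf7, a factor that drives interferon genes (2.33 ± 0.45, adjusted p = 0.00565), were under 0.5 FPKM in each embryo library. Ifitm3, which blocks viral entry, was at 54.9 and 52.9 against 190.3 and 144 FPKM (1.60 ± 0.39, adjusted p = 0.0186). Of the 21 tested genes 4 had reached the filter only through the yolk sac.

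**Figure D3:**
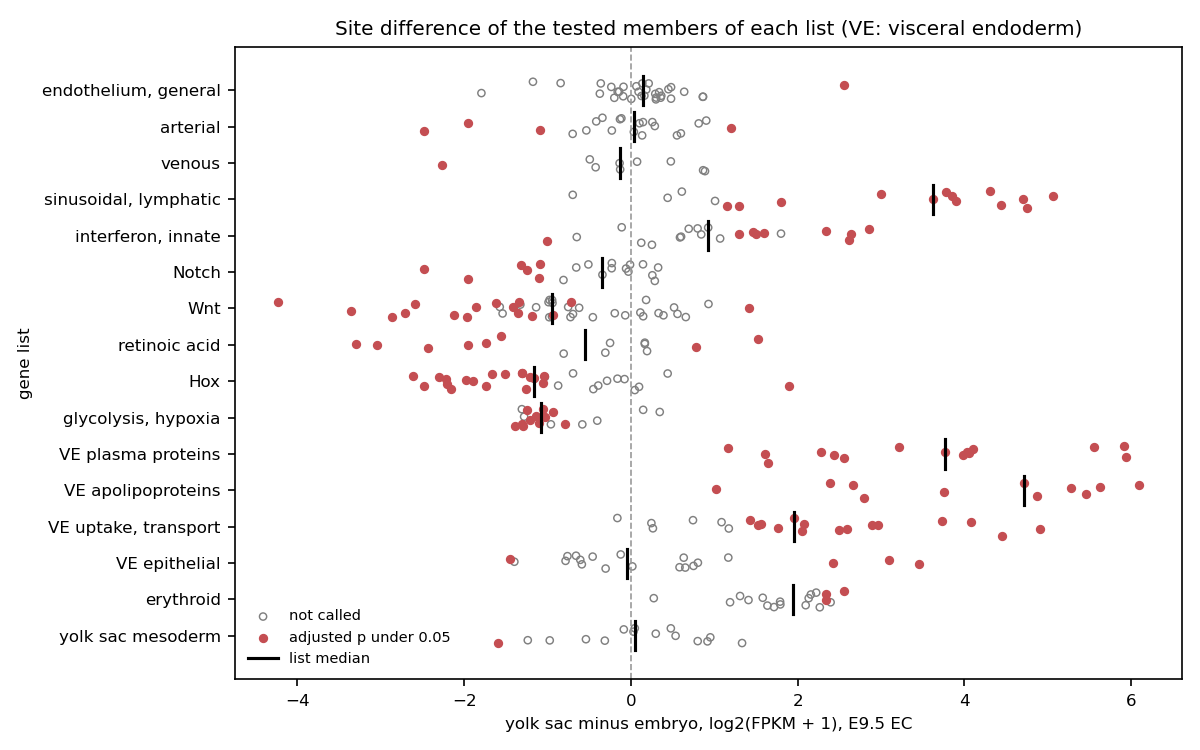
Difference between yolk sac and embryo EC at E9.5 on the log2(FPKM + 1) scale for each tested member of 16 lists, filled where the adjusted p was under 0.05, with a black bar at the list median. The general endothelial list centres at 0.15, the sinusoidal list at 3.63 and the Hox list at −1.17.

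Visceral endoderm genes rose steeply in the yolk sac libraries. Afp, the alpha-fetoprotein of fetal serum, was at 3.41 and 17.5 FPKM in the embryo and 646 and 478 in the yolk sac, higher by 5.94 ± 0.89 (adjusted p = 0.00124). Apoa1, the main apolipoprotein of HDL, was at 3.37 and 22.3 against 761 and 624 FPKM (6.09 ± 0.84, adjusted p = 0.000712). Ttr, which carries thyroid hormone, was at 0.9498 and 8.21 against 300.1 and 214 FPKM (5.91 ± 0.75, adjusted p = 0.000402), and Rbp4, which carries retinol, at 4.003 and 23.7 against 627 and 437 (5.56 ± 0.77, adjusted p = 0.000744). Each was higher in embryo replicate 2 than in embryo replicate 1 and higher in yolk sac replicate 1 than in yolk sac replicate 2. Apom, an apolipoprotein that carries sphingosine 1-phosphate, was at 1.32 and 4.67 against 189 and 166 FPKM (5.62 ± 0.64, adjusted p = 0.000216), and Spink3, a trypsin inhibitor, at 0.823 and 3.902 against 177 and 152 FPKM (5.79 ± 0.54, adjusted p = 6.76e-05).

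By role, the secretory and uptake genes of visceral endoderm were higher and its general epithelial genes were mostly not called. Among all tested genes 6.61% were called higher and 5.17% lower. Of 27 plasma protein genes 15 were tested and these 15 were higher, but 9 of the 15 had reached the filter only through the yolk sac and so had to differ. The 12 below the filter held Alb, the albumin gene, which stood under 0.1 FPKM in each library. Of 12 apolipoprotein genes 11 were tested and 11 were higher, Apoa2 by 5.45 ± 0.43 (adjusted p = 2.8e-05) and Apob, the scaffold of lipoproteins, by 4.87 ± 0.46 (adjusted p = 7.49e-05). In the uptake and transport list 15 of 21 were higher. Amn, at 0.554 and 1.98 against 76.6 and 52.8 FPKM (4.91 ± 0.49, adjusted p = 9.03e-05), and Cubn, at 0.419 and 2.103 against 61.6 and 32.8 FPKM (4.45 ± 0.42, adjusted p = 7.49e-05), form the receptor by which this epithelium takes up maternal proteins. Hnf4a, a factor of endoderm differentiation, was at 0.213 and 0.259 against 11.6 and 8.23 FPKM (3.12 ± 0.34, adjusted p = 0.000163), and Foxa3 was the other of 2 called among 9 tested factors of 15. Here too some genes had reached the filter only through the yolk sac and so had to be higher there. They were 2 of the 11 apolipoprotein genes, 4 of the 21 uptake genes, 4 of the 9 factors, Hnf4a among them, and 1 of the 20 epithelial genes. Of 20 epithelial genes 3 were higher, Cldn2, Vil1 and Tmprss2, and 1 was lower, Esrp1, at 6.32 and 5.01 against 1.64 and 1.23 FPKM (−1.45 ± 0.31, adjusted p = 0.0101). The sum of the epithelial list, 924.9 and 1095 FPKM in the embryo and 694.1 and 1301 in the yolk sac, overlapped between sites.

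Over the 5 lists together, 76 of 95 visceral endoderm genes were tested, and 20 had reached the filter only through the yolk sac. Of the 76, 46 were higher and 1 was lower, against 6.61% and 5.17% of all tested genes. Genes outside these lists made up 771 of the 817 called higher, so the lists name only a part of the yolk sac difference. To describe which of the called genes moved with endothelial markers, the E10.5 yolk sac was read, where the HE libraries held 1402 and 454.6 FPKM of general endothelial genes and the EC libraries 5685 and 5042. These 4 libraries are none of the E9.5 EC libraries, though they enter the same fit. There all 32 general endothelial genes were lower in HE than in EC by at least 1 on the log2 scale (median −2.46). Of the sinusoidal genes called at E9.5, 11 of 13 were lower by at least 1 as well, with Lyve1 at −3.01, Stab2 at −2.86 and Gpr182 at −3.20. Of the 46 visceral endoderm genes called higher 1 was, and Afp (0.12), Ttr (0.01) and Apoa1 (−0.27) lay near 0. The median of all tested genes also lay near 0 (0.003). Among all 817 genes called higher 143 were lower by at least 1 (17.5%), against 6.24% of all tested genes and 4.69% of the genes called lower in the yolk sac. A gene under 1 FPKM in both E10.5 yolk sac EC libraries could not fall by 1 on this scale. Some genes called lower, such as Fzd10 and Tbx1, had means there of 0.215 and 0.457 FPKM, so these shares depend in part on level. The description has no test, and other cell types also moved between those libraries, with yolk sac mesoderm genes at 5119 and 3295 FPKM in HE and 1989 and 1898 in EC.

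**Figure D4:**
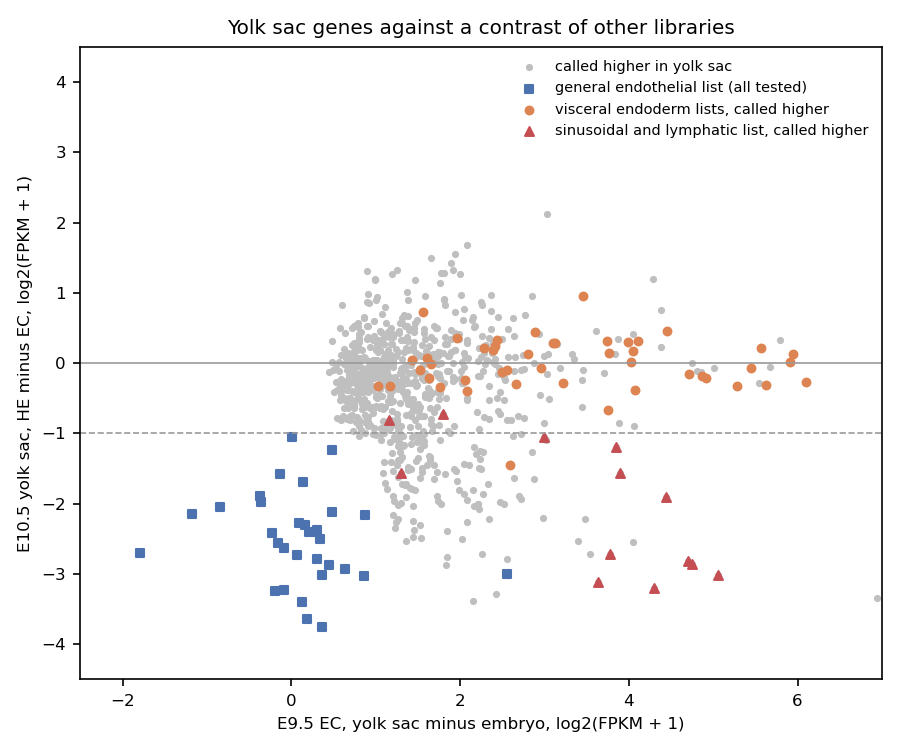
Site difference at E9.5 (x axis) against the HE minus EC difference in the E10.5 yolk sac (y axis), both on the log2(FPKM + 1) scale, for genes called higher in the yolk sac and for the general endothelial list; a few genes lie outside the plotted range. Sinusoidal genes lie with the general endothelial genes, mostly under −1 on the y axis, and visceral endoderm genes lie near 0.

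Most of the other named genes that were higher lay near 0 in this description, where the median of all tested genes also lay (0.003). S100g, a calcium-binding protein, was at 2.15 and 9.25 against 302 and 277 FPKM (5.68 ± 0.68, adjusted p = 0.000304), Lgals2, a galectin, at 0.185 and 1.51 against 88.5 and 71.9 (5.55 ± 0.50, adjusted p = 5.52e-05), and Spp2, a secreted phosphoprotein, at 0.408 and 1.86 against 73.3 and 55.3 (5.01 ± 0.42, adjusted p = 4.48e-05). With Car7, a carbonic anhydrase (4.81 ± 0.40, adjusted p = 4.48e-05), and Gm10680 (4.85 ± 0.34, adjusted p = 1.7e-05), these lay between −0.29 and −0.06 in the HE minus EC difference. Visceral endoderm genes and tested genes in general lay there too, so the value alone assigns these genes to no cell type. Gm15655, at 1.07 and 3.07 against 71.5 and 31.5 FPKM (4.06 ± 0.57, adjusted p = 0.000785), lay at −0.90. Mest, an imprinted gene, and its neighbour Copg2 were listed at 0 in both embryo libraries and at 2110.5 and 1741 and 374 and 365 FPKM in the yolk sac. At E10.5 both were also at 0 in yolk sac replicate 2, beside 1175 and 1485 FPKM of Mest in the embryo, so a 0 of these genes can be a failed estimate and no fold is given. Mir1199, a microRNA gene, was likewise listed at 0 in the embryo and at 185 and 80.7 FPKM in the yolk sac. Mest, Copg2 and Mir1199 had thus reached the filter only through the yolk sac and had to be higher there.

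Replicates of a site also sorted the groups. In the yolk sac the median ratio of replicate 2 to replicate 1 was 0.518 for general endothelial genes and 0.51 for sinusoidal genes, 0.714 for visceral endoderm plasma proteins, 0.75 for apolipoproteins, 2.33 for erythroid genes and 4.13 for yolk sac mesoderm genes. In the embryo it was 0.883 for general endothelial genes but 1.84 for the sinusoidal list, of which 15 of 17 genes were higher in replicate 2. It was 2.11 for plasma proteins, 3.23 for apolipoproteins and 5.32 for erythroid genes, all 18 of which were higher in replicate 2. The low levels of sinusoidal genes in the embryo thus moved with visceral endoderm and erythroid genes between the 2 replicates, and the part of those cells in these levels was not tested.

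Several genes of Wnt signalling were lower in the yolk sac than in the embryo. Fzd10, a Wnt receptor, was at 23.1 and 22.9 FPKM in the embryo and 0.468 and 0.119 in the yolk sac, a difference of −4.23 ± 0.18 (adjusted p = 3.31e-07). Lef1, the DNA-binding partner of β-catenin, was at 17.4 and 17.8 against 1.22 and 0.494 FPKM (−3.35 ± 0.23, adjusted p = 1.32e-05). For both genes the embryo libraries differed by under 1 FPKM, and the groups lay far apart. Notum, a secreted Wnt inhibitor, was at 15.3 and 13.3 against 1.29 and 0.898 FPKM (−2.87 ± 0.31, adjusted p = 0.000169), and the target Axin2 at 7.63 and 10.6 against 0.988 and 1.66 (−2.12 ± 0.22, adjusted p = 0.000127). The ligand Wnt6 was at 48.1 and 41.00 against 6.24 and 5.72 FPKM (−2.70 ± 0.52, adjusted p = 0.00546), and Tnfrsf19, a receptor that Wnt signalling induces, at 12.3 and 11.9 against 1.08 and 1.29 (−2.59 ± 0.22, adjusted p = 4.48e-05). Among the tested Wnt genes 3, Fzd10 among them, had reached the filter only through the embryo and so had to be lower in the yolk sac. Of 42 tested Wnt genes 15 were lower in the yolk sac and 1 was higher, against 5.17% and 6.61% of all tested genes, and the median was −0.95 (9 to 19 called when 1 library was left out).

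Retinoic acid genes were lower in 6 of 14 tested cases and higher in 2, against 5.17% and 6.61% of all tested genes. Of the 14, 1 had reached the filter only through the embryo. Crabp1, which binds retinoic acid in the cytoplasm, was at 101 and 90.02 against 13.4 and 5.73 FPKM (−3.29 ± 0.37, adjusted p = 0.00019), and its relative Crabp2 at 41.9 and 32.5 against 11.3 and 3.01 (−2.43 ± 0.44, adjusted p = 0.00401). Cyp26a1, the enzyme that breaks retinoic acid down, was at 16.2 and 15.7 against 0.684 and 1.498 FPKM (−3.04 ± 0.36, adjusted p = 0.000304). Aldh1a2, the enzyme that makes it, differed by −1.96 ± 0.31 (adjusted p = 0.00156) and the uptake receptor Stra6 by −1.74 ± 0.28 (adjusted p = 0.00177). The 2 that were higher in the yolk sac were Dhrs3, which reduces retinal to retinol (1.53 ± 0.31, adjusted p = 0.0075), and Rxra, a retinoid receptor (0.78 ± 0.19, adjusted p = 0.021). Thus enzymes for both making and breaking retinoic acid were higher in the embryo libraries.

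Hox genes, which set position along the body axis, were lower in the yolk sac in 18 of 31 tested of 38, against 5.17% of all tested genes, with 1 higher and a median of −1.17. Hoxb9 was at 14.5 and 12.9 against 2.17 and 0.806 FPKM (−2.62 ± 0.32, adjusted p = 0.000336), Hoxa7 at 7.34 and 5.897 against 0.506 and 0.223 (−2.48 ± 0.25, adjusted p = 0.000109) and Hoxa9 at 14.5 and 11.1 against 2.57 and 1.15 (−2.30 ± 0.28, adjusted p = 0.000304). Hoxd9, Hoxa5 and Hoxa4 differed by −2.21 ± 0.22, −2.20 ± 0.34 and −2.15 ± 0.23 on the log2 scale (adjusted p from 8.97e-05 to 0.00135). The gene that was higher, named after its value was seen, was Hoxc8, at 1.997 and 2.43 against 4.495 and 24.8 FPKM (1.89 ± 0.54, adjusted p = 0.041). Of the 31 genes 10 had reached the filter only through the embryo. Between 10 and 21 Hox genes were called when 1 library was left out, fewest without embryo replicate 1.

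Tbx1, a T-box factor of pharyngeal and paraxial mesoderm, was at 13.96 and 12.5 FPKM in the embryo and 0.682 and 0.253 in the yolk sac, a difference of −3.29 ± 0.20 (adjusted p = 4e-06). Of the other leading genes, Cdh2, the neural and mesenchymal cadherin, was at 27.1 and 26.1 against 2.202 and 2.24 FPKM (−3.10 ± 0.26, adjusted p = 4.48e-05), and Etv4, an ETS factor downstream of FGF signals, at 15.6 and 15.7 against 1.31 and 1.04 (−2.94 ± 0.25, adjusted p = 4.48e-05). The uncharacterised 5930412G12Rik was at 12.6 and 11.6 against 0.622 and 0 FPKM (−3.36 ± 0.30, adjusted p = 5.52e-05). The small RNA genes Snora28, Snora16a, Gm23639 and AF357399 stood at 56.9 and 169, 60.6 and 62.7, 78.9 and 40.03 and 66.9 and 32.8 FPKM in the embryo and at 0 in both yolk sac libraries. No fold is given for them, and FPKM of such short transcripts is uncertain. Tbx1, 5930412G12Rik and these small RNA genes were under 1 FPKM in both yolk sac libraries. They had reached the filter only through the embryo and so had to be lower in the yolk sac.

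Markers of other embryo cell types moved with these genes. Of 28 genes of somites and mesenchyme 16 were tested, 7 were lower and none higher, against 5.17% of all tested genes called lower, and 5 of the 16 had reached the filter only through the embryo. Foxc1, a forkhead factor of paraxial mesoderm, was at 15.1 and 15.3 against 1.77 and 0.615 FPKM (−2.94 ± 0.27, adjusted p = 6.01e-05), and Tcf15, a factor of somites, at 31.95 and 22.5 against 4.91 and 2.25 (−2.67 ± 0.36, adjusted p = 0.000651). Their list summed to 513.9 and 1036 FPKM in the embryo and 514.1 and 1842 in the yolk sac, with overlap, and the muscle genes Myf5 and Myog lay under 0.5 FPKM in each embryo library and at 0 in the yolk sac. Of 18 neural tube and crest genes 7 were tested, 3 of them only through the embryo. Against 5.17% of all tested genes, 4 were lower, among them Sox2 (3.99 and 3.53 against 0.501 and 0.0317 FPKM, −1.93 ± 0.24, adjusted p = 0.000397) and Zic2 (4.199 and 3.48 against 0.421 and 0.0737 FPKM, −1.97 ± 0.21, adjusted p = 0.000147). The neural list summed to 88.62 and 84.42 FPKM in the embryo and 41.14 and 29.48 in the yolk sac. The germ cell gene Dppa3 was at 3.57 and 5.83 against 0.136 and 0.0704 FPKM (−2.34 ± 0.33, adjusted p = 0.000824) and Pou5f1, which encodes OCT4, at 7.105 and 8.65 against 1.404 and 0.117 (−2.43 ± 0.42, adjusted p = 0.00299). In the germ and pluripotency list 6 of 13 tested genes were lower and 1, Rhox6, was higher, against 5.17% and 6.61% of all tested genes. Of the 13, 3 had reached the filter only through the embryo. Members that did so, Dppa3 and Sox2 among them, had to be lower in the yolk sac. The part of these cell types in the Wnt, Hox and retinoic acid differences was not tested.

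Glycolysis and hypoxia genes were lower in the yolk sac in 11 of 18 tested cases, against 5.17% of all tested genes, and none was higher, with a median of −1.08. Pdk1, which turns pyruvate away from mitochondria under HIF control, was at 63.2 and 56.4 against 23.3 and 21.3 FPKM (−1.39 ± 0.17, adjusted p = 0.000332). The glycolytic enzymes Pgk1, at 860.3 and 803 against 332 and 342 FPKM (−1.30 ± 0.20, adjusted p = 0.00146), and Eno1, at 1381 and 1304 against 502 and 597 FPKM (−1.29 ± 0.18, adjusted p = 0.000905), and the hexokinase Hk2 (−1.25 ± 0.31, adjusted p = 0.0232) were among them. In these 4 genes the replicates of a site lay close together and the sites did not overlap. Slc2a3, a glucose transporter, was at 491 and 372 against 220.3 and 139 FPKM and did not pass (adjusted p = 0.288). The count of called genes was 5 without embryo replicate 2. Of 25 cell cycle genes 3 were lower, Ccnd2 (32.1 and 26.6 against 7.83 and 10.4 FPKM, −1.59 ± 0.25, adjusted p = 0.00153), Ccnd1 (−0.72 ± 0.17, adjusted p = 0.0168) and Mcm3 (−0.54 ± 0.13, adjusted p = 0.0194), against 5.17% of all tested genes, and none was higher.

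Erythroid genes and some megakaryocyte genes were higher in the yolk sac libraries, and erythroid genes spread widely between replicates. All 18 erythroid genes had a higher mean of log2 values in the yolk sac (median 1.95). Against 6.61% of all tested genes called higher, 3 of them passed. They were Epor, the erythropoietin receptor, at 2.18 and 5.19 against 25.5 and 24.8 FPKM (2.56 ± 0.31, adjusted p = 0.000323), the embryonic globin gene Hba-x, at 415 and 2259.9 against 3182 and 7600.3 (2.34 ± 0.69, adjusted p = 0.0464), and Alas2, the first enzyme of heme synthesis in red cells, at 3.900 and 24.1 against 36.3 and 83.6 (2.34 ± 0.68, adjusted p = 0.0454). The globin Hbb-bh1 was at 577 and 3651 against 4518 and 12927 FPKM and did not pass (adjusted p = 0.0619). Between 1 and 13 erythroid genes were called when 1 library was left out, with the lowest count in 10 of the 16 omissions and the highest without embryo replicate 2. Against 6.61% of all tested genes, 3 of 8 tested megakaryocyte genes were higher, Itga2b, Pf4, the platelet chemokine (0.685 and 2.33 against 12.96 and 7.64 FPKM, 2.21 ± 0.54, adjusted p = 0.0199), and Alox12 (1.95 ± 0.33, adjusted p = 0.00297). Of the 8, 1 had reached the filter only through the yolk sac. The megakaryocyte list as a whole summed to 90.2 and 89.51 FPKM in the embryo and 152.5 and 99.26 in the yolk sac, and the platelet glycoproteins Gp1ba, Gp5 and Gp9 lay under 1 FPKM in all 4. Lmo2, a scaffold of blood and endothelial factors, was lower in the yolk sac, at 126 and 127 against 53.02 and 34.7 FPKM (−1.54 ± 0.34, adjusted p = 0.0125). Of 15 tested genes of blood transcription factors 3 were lower and 0 higher, against 5.17% and 6.61% of all tested genes. Their median difference was −0.005.

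The same sites were compared 1 day later in 4 other EC libraries, which asks whether the site difference recurs. Both stages come from one fit and share its estimate of the spread. At E10.5, 1620 genes were higher and 2022 lower in the yolk sac, 29.4% of those tested (13.1% higher and 16.3% lower), around a median of −0.17. Under median-ratio scaling the split was 1928 higher and 1320 lower, and with visceral endoderm and erythroid genes left out of the scaling 1559 and 1165, and it was 1353 and 1010 with the 4 libraries alone and 1192 and 1013 without embryo replicate 2 of E10.5, so the balance between directions at E10.5 is not settled. Of the 817 genes higher at E9.5, 802 had the same sign at E10.5 and 709 were called higher again, 86.8% of the E9.5 genes and 43.8% of the E10.5 genes, and 0 were called lower. Of the 640 lower genes 482 were called lower again (75.3% and 23.8%) and 3 were called higher. Lyve1 differed by 5.91 ± 0.63 at E10.5 (adjusted p = 4.56e-05), Stab2 by 4.73 ± 0.63 (adjusted p = 0.000237), Fzd10 by −5.14 ± 0.18 (adjusted p = 2.11e-08) and Tbx1 by −4.69 ± 0.20 (adjusted p = 6.85e-08). Of the sinusoidal list 15 were higher at E10.5, with a median of 3.83 beside 3.63 at E9.5. Plasma protein genes had a median of 5.65 beside 3.76, and apolipoprotein genes 6.78 beside 4.71. Epithelial genes of visceral endoderm had a median of 2.69 beside −0.05, with 17 higher and 0 lower at E10.5 beside 3 and 1 at E9.5. Yolk sac mesoderm genes had a median of 2.14 beside 0.05. Glycolysis genes had a median of −0.35 beside −1.08.

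**Figure D5:**
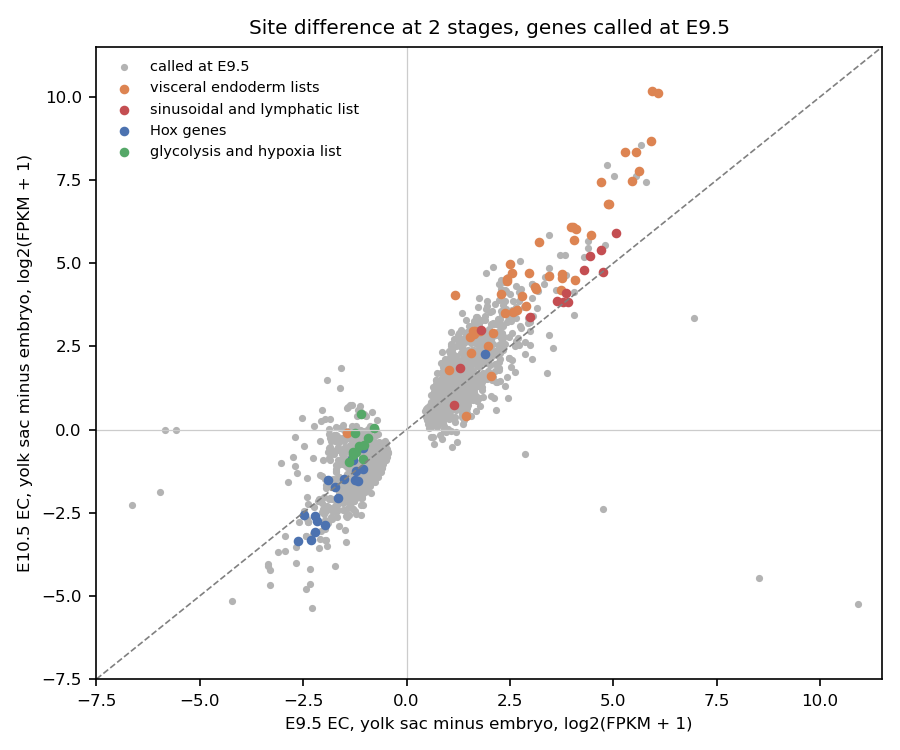
Yolk sac minus embryo difference in EC at E9.5 (x axis) and E10.5 (y axis), on the log2(FPKM + 1) scale, for the genes called at E9.5, with the diagonal dashed. Visceral endoderm genes called higher lie mostly above the diagonal, sinusoidal genes lie along it, and 2 points above 8 at E9.5 and below 0 at E10.5 are Mest and Copg2, which were listed at 0 in some libraries.

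The difference between the stages was tested itself, as an interaction in the same fit, and 23 genes (0.186% of those tested) passed, 19 with a site difference that was more positive at E10.5 (0.154%) and 4 with one more positive at E9.5 (0.0323%). Of the 23, 6 belonged to the visceral endoderm lists (76 of the 12369 tested genes), such as Apoa4 at 0.234 and 1.102 against 47.6 and 35.7 FPKM at E9.5 and 0 and 0 against 194 and 157 FPKM at E10.5. None of the sinusoidal, Hox, Wnt or Notch genes passed this test, which with 2 libraries per group does not show that their differences were equal. The count was 0 without embryo EC replicate 2 of E9.5 (765 genes at an unadjusted p under 0.05) and 0 without yolk sac EC replicate 1 of E9.5 (971 genes).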

How the data were processed

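The authors deposited 1 table of FPKM for 33531 gene symbols in 16 libraries; per the submitters' processing notes Cufflinks, featureCounts and build mm9 were used, in roles that are not described. Overlapping and copied genes are uncertain, since neither strand, annotation nor aligner is given in the sources used here, and a 0 may be a failed estimate. FPKM were used as deposited and transformed as log2(FPKM + 1), which understates the change of low genes. Genes with at least 1 FPKM in at least 2 of the 4 E9.5 EC libraries were tested with limma 3.58.1 (trend) in R 4.3.3, with 1 mean per group over all 16 libraries (8 groups of 2, residual degrees of freedom 8, prior 3.83). P-values are 2-sided and Benjamini-Hochberg adjusted over 12369 genes, called under 0.05. A value after ± is limma's standard error. The script was tested on simulated data. Low values move in steps too uneven to recover reads, so the depth is unknown. Members and lists were chosen with earlier results of these data known. Named were, among called genes with a mean of at least 5 FPKM in the higher group and no overlap, the 12 largest rises outside visceral endoderm lists that were lower in HE than in EC of the E10.5 yolk sac, the 8 largest other rises and the 12 largest falls; Lyve1, Stab2, Fzd10 and Tbx1; the sort markers; and per list at most 6 tested members with the largest difference. Defining cell type markers and single called genes outside this rule were chosen after their values were seen. Alternatives were other pseudocounts, filters, scalings and weights, fewer libraries, and a replicate block.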

Additional observations from a re-analysis of the deposited data

Results flagged for a closer look

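In the test of whether the site difference itself changed between the stages, 23 genes passed. Those of them in a gene list or among the named genes are given here, as the E9.5 difference minus the E10.5 difference on the log2(FPKM + 1) scale.

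Several secreted proteins had a site difference that was more positive at E10.5. Apoa4, an apolipoprotein, had a value of −2.74 and F2, the prothrombin gene, of −2.15. The protease inhibitors Serpina1a and Serpina1b, copies of one family whose reads may be shared, had −2.88 and −2.43. Gm10680, which is in no gene list, stood at −3.10, with 0.467 and 2.37 against 76.2 and 52.4 FPKM at E9.5 and 0 and 0 against 250.3 and 244 FPKM at E10.5. Cited1, a transcriptional coregulator, had −2.48, with 8.11 and 4.95 against 47.7 and 34.6 FPKM at E9.5 and 1.77 and 2.46 against 110.5 and 84.95 FPKM at E10.5. For Krt7, a keratin of simple epithelia, the value was −3.74, and both sites moved. Embryo levels fell from 18.1 and 14.6 FPKM at E9.5 to 0.918 and 4.07 at E10.5, and yolk sac levels rose from 14.6 and 11.5 to 32.1 and 33.3. Epithelial genes as a list summed to 924.9 and 1095 FPKM in embryo EC at E9.5 and to 99.11 and 272.6 at E10.5.

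In the other direction, Stra6, the retinol uptake receptor, had 2.37, with 4.54 and 3.42 FPKM in the embryo at E9.5 and 23.8 and 22.9 at E10.5. Rhox9, a homeobox gene of germ cells, had 2.65, and Dppa4, a pluripotency gene, 2.31, with 0.393 and 0.653 FPKM in the embryo at E9.5 and 5.64 and 4.21 at E10.5.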

How the results depend on the processing

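The E9.5 count of 1457 was 966 with a filter at 5 FPKM, 803 with the 4 libraries alone, and between 514 (without embryo EC replicate 1) and 1737 with any 1 library left out. The E10.5 count of 3642 was 2363 with the 4 libraries alone and between 2078 (without yolk sac EC replicate 1) and 4100 with 1 left out; it was 2205 without embryo EC replicate 2. The stage test, at 23, depended on most settings: 1 and 15 with pseudocounts of 0.1 and 0.5, 57 without a filter, 67 with the filter over 16 libraries, 9 with a filter at 5 FPKM, 46 with median-ratio scaling, 14 with visceral endoderm and erythroid genes left out of the scaling, 3 with the 8 EC libraries alone, 86 without both E10.5 yolk sac HE libraries, and 0 to 175 with 1 library left out. The causes were not tested. Where 1 library is left out, the lone library of its group is assumed to vary like the others. Replicate numbers are shared between groups, but the labels tie them to nothing: deviations of same-numbered E9.5 EC libraries correlated at 0.243 across genes and those at E10.5 at −0.341. With the replicate block the counts were 1511, 3699 and 17, and 3840 at E10.5 with the embryo numbers crossed, a setting chosen after seeing the data. Of 18 erythroid genes the block called 16, against 3 without it. Of 32 named genes 29 passed in all 28 alternatives and 0 reversed. Gm23639 was lost in 10, Mir1199 in 2 (without embryo or yolk sac EC replicate 1) and AF357399 in 1 (without embryo EC replicate 1). Unknown depth limits what can be said of genes near 1 FPKM.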

Other observations

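Of the genes called higher in yolk sac EC with a mean of at least 5 FPKM there, 117 were lower by at least 1 on the log2 scale in HE than in EC of the E10.5 yolk sac, as general endothelial genes were, and 91 of these were in no gene list. Without the limit on level, 143 of the 817 genes called higher (17.5%) were so, against 6.24% of all tested genes. Genes under 1 FPKM in both E10.5 yolk sac EC libraries could not fall by that much, so these shares depend in part on level. The genes named here were chosen after their values were seen. Several encode secreted or cell surface proteins, and which cells of these libraries made them was not tested. Igfbp7, a matrix-bound binding protein of endothelium, was at 5.65 and 7.86 against 115 and 68.00 FPKM (3.54 ± 0.53, adjusted p = 0.00124). Col13a1, a transmembrane collagen, was at 1.83 and 3.25 against 77.5 and 40.6 FPKM (4.04 ± 0.54, adjusted p = 0.000615). Dpp4, a surface peptidase that the visceral endoderm uptake list holds, was at 0.797 and 1.67 against 16.1 and 9.14 FPKM (2.59 ± 0.34, adjusted p = 0.000512), and Sepp1, the plasma selenoprotein, at 73.00 and 87.5 against 867 and 498 (3.02 ± 0.36, adjusted p = 0.000279). Hpgd, which degrades prostaglandins, was at 1.17 and 2.26 against 37.3 and 19.5 FPKM (3.40 ± 0.58, adjusted p = 0.00297), and Lgals9, a galectin, at 2.72 and 2.26 against 45.98 and 31.3 (3.48 ± 0.41, adjusted p = 0.000277). Fabp4, a fatty acid carrier of capillary endothelium, was lower than these, at 0.109 and 0.751 against 8.59 and 5.97 FPKM (2.55 ± 0.68, adjusted p = 0.0297), and reached 44.3 and 79.3 FPKM in the yolk sac at E10.5. At E9.5 Fabp4 had reached the filter only through the yolk sac and so had to be higher there.

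Matrix and guidance genes differed singly, and 11.8% of all tested genes were called. Of 24 basement membrane genes 3 were lower in the yolk sac, Vwa1 (7.73 and 7.801 against 1.14 and 0.922 FPKM, −2.11 ± 0.24, adjusted p = 0.000224), Fbn2 (−1.33 ± 0.30, adjusted p = 0.0134) and Agrn (−1.02 ± 0.23, adjusted p = 0.0125), and 1 was higher, the fibronectin gene Fn1 (133 and 147 against 286 and 237 FPKM, 0.89 ± 0.25, adjusted p = 0.0378). Of 27 guidance genes 3 were lower and 1 was higher, and 4 of the 27 had reached the filter only through the embryo. Sema3e, which repels endothelial sprouts, was at 3.13 and 7.27 against 0.545 and 1.06 FPKM (−1.71 ± 0.33, adjusted p = 0.00565), Ntn1, the netrin gene, differed by −1.50 ± 0.40 (adjusted p = 0.0301), and Slit2, a ligand of Robo receptors, was higher in the yolk sac, at 3.26 and 3.13 against 7.62 and 7.71 FPKM (1.05 ± 0.29, adjusted p = 0.0391). Among imprinted genes Phlda2 was higher, at 8.69 and 14.9 against 76.1 and 64.4 FPKM (2.52 ± 0.28, adjusted p = 0.000169), and Grb10 lower, at 270.1 and 248 against 149 and 99.1 FPKM (−1.08 ± 0.25, adjusted p = 0.0138).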
